A study of Mus musculus with 4 samples.

Results

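The heat shock genes described here are 10 genes of the cytosolic and mitochondrial protein folding machinery, *Hspa1a*, *Hspa1b*, *Hspa8*, *Hsph1*, *Dnaja1*, *Dnajb1*, *Hsp90aa1*, *Hsp90ab1*, *Hspd1* and *Hspe1*. They were taken by symbol from an RNA‐seq table of whole mouse liver with 22103 entries, each symbol was found once, and all 10 were among the 12346 genes tested. The question addressed was whether hepatocyte Brg1, the ATPase of the SWI/SNF chromatin remodeling complex encoded by *Smarca4*, affects their levels in alcohol‐exposed livers. The table holds 2 WT livers and 2 livers with hepatocyte‐specific Brg1 deletion (LKO), made by crossing *Smarca4* f/f mice with *Alb*‐Cre mice, so that deletion is driven by the albumin promoter. Whole liver RNA does not show which other cells kept Brg1. According to the methods, alcoholic injury was induced in male mice of 8 weeks with a chronic ethanol liquid diet of 2 weeks followed by 1 ethanol gavage, and the WT mice were littermates whose alleles were not given. The sample labels give 15 days of alcohol for all 4 mice. No liver without alcohol is in the table, so none of the values below measures an effect of alcohol.

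Chaperones of the HSP70 family bind exposed stretches of unfolded proteins in a cycle of ATP hydrolysis that J‐domain proteins start and nucleotide exchange factors reset. HSP90 acts later on many kinases and steroid receptors, and the chaperonin of mitochondria encloses imported proteins while they fold. Heat, ethanol, oxidants and other conditions that unfold proteins release the transcription factor HSF1 from chaperones, and HSF1 trimers then bind heat shock elements, which are alternating GAA and TTC units separated by a pair of bases. Some of these genes are nearly silent in unstressed cells (*Hspa1a*, *Hspa1b*), while others are constitutive and abundant (*Hspa8*, *Hsp90ab1*).

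The promoter sequences are shown first because shared heat shock elements set 2 pairs of these genes beside each other. RefSeq windows on GRCm38.p6, from 250 bases before to 50 bases after a start site, were found for 7 of the 10 genes, in 12 windows. Both strands were searched for the patterns GAANNTTC and TTCNNGAA, each of which is its own reverse complement, and for runs of 3 units, in which a match to one pattern overlaps a match to the other. One or other of the patterns of 2 units was in 7 of the 12 windows, against 15.1% of 32851 windows of all genes, and a run of 3 units was in 4 of the 12, against 0.603%. The windows of one gene can overlap, and the matches belonged to 6 and 3 of the 7 genes. The same run of units counted in both windows of *Hsph1*, and another counted for both *Hspd1* and *Hspe1*. Because the genes were picked as HSF1‐driven chaperones and mitochondrial chaperonins, a share above that of all windows was built into the choice. Below, capitals mark the GAA and TTC units of a match, each sequence reads 5′ to 3′ on the strand of its gene, and the others are in lower case.

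*Hspa1a* (chr17:34972241-34972272, minus strand): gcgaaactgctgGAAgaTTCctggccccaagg
*Hspa1b* (chr17:34959323-34959354, minus strand): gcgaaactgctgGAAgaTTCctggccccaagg
*Dnaja1* (chr4:40722332-40722363, plus strand): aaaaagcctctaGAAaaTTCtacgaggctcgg
*Hsph1* (chr5:149636350-149636381, minus strand): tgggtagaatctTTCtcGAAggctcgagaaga
*Hspe1* (chr1:55088047-55088088, plus strand): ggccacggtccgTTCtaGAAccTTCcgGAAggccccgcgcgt

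*Hspa1a* and *Hspa1b* carried the same 32 bases, with the match starting 104 bases before either start site. In *Hsph1* the match of 2 units started 33 bases before one start site and 54 bases before the other, and both windows held a further run of 3 units downstream of the start. *Hspd1* and *Hspe1* lie head to head on chromosome 1, and the 4 units printed for *Hspe1* are, read on the other strand, the 4 units of *Hspd1*. The run started 89 bases before the start of *Hspe1* and 144 bases before one of the 2 starts of *Hspd1*, and it lay downstream of the other start, outside that window. *Dnaja1* had its match in 1 of 3 windows, and neither window of *Dnajb1* held these letters. Such matches describe the sequence alone, and the binding of HSF1 was not measured in these livers.

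**Figure D1:**
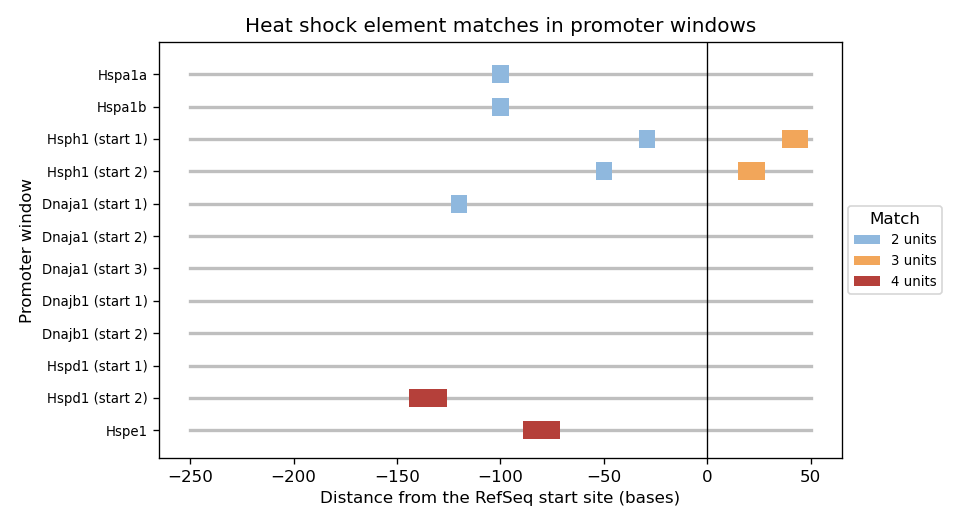
Positions of heat shock element matches in the 12 RefSeq promoter windows of 7 heat shock genes, by distance from the start site in bases, with bar colour for 2, 3 or 4 consecutive units. The run of 4 units shared by Hspd1 and Hspe1 is upstream of the Hspe1 start and of 1 of the 2 Hspd1 starts, and the matches of Hspa1a and Hspa1b sit at the same distance.

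The 4 libraries were of similar depth. Totals estimated from the steps of the low FPKM values were 72577800 to 80903700 reads, and 88.5% to 89.7% of low values came out within 0.1 of a whole read. The targeted gene *Smarca4* was at 1.78 and 1.95 FPKM in WT and 0.608 and 0.579 FPKM in LKO. All 8 hepatocyte markers were detected in every liver, with summed levels of 18054 to 22092 FPKM, and none of 8 lymphocyte markers reached the mean of 0.1 FPKM required for testing. Over all genes tested, replicate 2 lay above replicate 1 by a median of 0.27 in WT and 0.30 in LKO on the log2 scale, a shift between the libraries against which the differences below have to be read.

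The heat shock genes did not separate the LKO livers from the WT livers. None of the 10 passed the threshold of the study, an unadjusted p under 0.05 with a change of more than 2‐fold, which 0.98% of all genes tested passed. None had an adjusted p under 0.05 (0% of all genes, 247 of which had an unadjusted p under 0.05), and none had an unadjusted p under 0.05, the range being 0.277 to 0.967 (limma on log2(FPKM + 0.1) with Benjamini‐Hochberg adjustment). In none of the 10 did both LKO values lie outside both WT values, which they did for 20.7% of all genes tested. This holds for the FPKM values as given, and *Hspd1* became an exception after median‐ratio rescaling for the shift between libraries. On the log2 scale, 8 genes were higher and 2 lower in the LKO livers, from −0.06 to 0.81 with a median of 0.11, beside a median of −0.02 over all genes. Instead, the values differed between the livers of one genotype. In all 10 genes LKO replicate 2 was the highest liver and WT replicate 2 the second, an order that was noticed after the values were seen and that 26.4% of all genes tested had. In 8 of the 10, LKO replicate 1 was the lowest. Replicate numbers in the labels only name the mice, and nothing in the sources says that mice with the same number were handled together. Since the RNA came from whole liver, fewer cells of a type and less RNA per cell cannot be told apart.

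**Figure D2:**
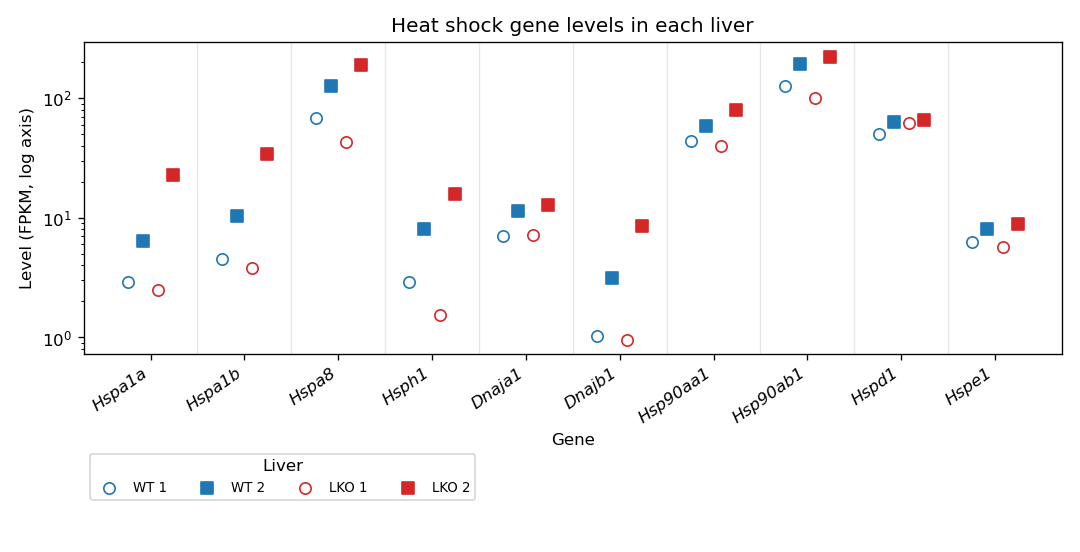
Level of each heat shock gene in each of the 4 livers in FPKM on a log axis, with WT in blue, LKO in red, open circles for replicate 1 and filled squares for replicate 2. For every gene the filled red square is highest and the filled blue square second, and no gene has both red points on one side of both blue points.

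*Hspa1a* and *Hspa1b* encode the stress‐inducible cytosolic HSP70 and are genes of 1 exon near each other on the minus strand of chromosome 17 (chr17:34969190-34972156 and chr17:34956436-34959238, GRCm38). *Hspa1a* was at 2.91 and 6.45 FPKM in WT and 2.52 and 23.0 FPKM in LKO. *Hspa1b* was at 4.52 and 10.3 FPKM in WT and 3.78 and 33.9 FPKM in LKO. For both genes the LKO values enclosed the WT values. *Hspa1a* averaged 4.68 ± 2.51 FPKM in WT (SD, n = 2) and 12.8 ± 14.5 FPKM in LKO (SD, n = 2), and its log2 fold change was 0.81 with a standard error of 0.71 (95% interval −0.73 to 2.34, adjusted p = 1.00). That of *Hspa1b* was 0.73 with a standard error of 0.72 (95% interval −0.81 to 2.27, adjusted p = 1.00). Between the livers of one genotype, *Hspa1a* differed 2.22‐fold in WT and 9.14‐fold in LKO, and *Hspa1b* 2.27‐fold and 8.98‐fold. The transcripts share sequence, since 38.1% of the 150‐base words of *Hspa1a* occur in *Hspa1b*, so reads could be divided between them in part by the counting. The ratio of *Hspa1b* to *Hspa1a* stayed between 1.47 and 1.59 in the 4 livers.

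*Hspa8* encodes the constitutive cytosolic HSP70, Hsc70, which also uncoats clathrin vesicles (chromosome 9, 40800984 to 40810087, plus strand). Its level was 68.2 and 126.7 FPKM in WT and 43.1 and 191.0 FPKM in LKO. LKO replicate 1 was the lowest of the 4 livers and LKO replicate 2 the highest, a 4.43‐fold difference, against 1.86‐fold between the WT livers. The genotype difference was −0.03 with a standard error of 0.54 (95% interval −1.20 to 1.13 on the log2 scale). Because *Hspa8* is abundant, it made up most of the summed cytosolic HSP70. *Hspa1a* and *Hspa1b* together made up 9.83% (WT replicate 1) and 11.7% (WT replicate 2) of the summed FPKM of the 3 genes and 12.8% in LKO replicate 1, but 23.0% in LKO replicate 2.

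*Hsph1* encodes HSP110, a nucleotide exchange factor that releases ADP from HSP70 (chromosome 5, 149614287 to 149636376, minus strand). Its values were 2.92 and 7.996 FPKM in WT and 1.55 and 15.7 FPKM in LKO. This was the widest range within a genotype among the 10 genes, 10.1‐fold between the LKO livers, with 2.74‐fold between the WT livers. The group means nonetheless lay close on the log2 scale, with a difference of 0.05 and a standard error of 0.75 (95% interval −1.57 to 1.66).

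The J‐domain proteins stimulate the ATPase of HSP70. *Dnajb1* encodes HSP40, the stress‐inducible partner of HSP70 (chromosome 8, 83608193 to 83612653, plus strand). Its level was 1.03 and 3.14 FPKM in WT and 0.961 and 8.55 FPKM in LKO. The lower livers of the 2 genotypes were nearly level, and the higher ones stood apart from them by 3.04‐fold and 8.89‐fold. *Dnajb1* had the lowest level of the 10 genes, but its values rested on an estimated 250 and 750 reads (WT) and 225 and 1858 reads (LKO). The genotype difference of *Dnajb1* was 0.66 with a standard error of 0.72 (95% interval −0.89 to 2.22). *Dnaja1*, the main constitutive cytosolic J‐domain protein of the DNAJA class (chromosome 4, 40722150 to 40737149, plus strand), was at 7.10 and 11.3 FPKM in WT and 7.18 and 12.7 FPKM in LKO. Its values split by replicate and not by genotype, 1.59‐fold in WT and 1.77‐fold in LKO, and the genotype difference was 0.09 with a standard error of 0.38. The ratio of *Dnajb1* to *Dnaja1* was 0.145 and 0.277 in WT and 0.134 and 0.672 in LKO.

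HSP90 has an inducible cytosolic form, HSP90α, encoded by *Hsp90aa1* (chromosome 12, 110690605 to 110702728, minus strand), and a constitutive form, HSP90β, encoded by *Hsp90ab1* (chromosome 17, 45567775 to 45573271, minus strand). *Hsp90aa1* was at 44.1 and 59.0 FPKM in WT and 39.6 and 79.6 FPKM in LKO. *Hsp90ab1* was at 126.1 and 192.4 FPKM in WT and 100.02 and 223.3 FPKM in LKO. Both WT values again lay between the LKO values. The LKO livers differed 2.01‐fold for *Hsp90aa1* and 2.23‐fold for *Hsp90ab1*, less than for the inducible HSP70 genes, and the WT livers 1.34‐fold and 1.53‐fold. The genotype differences were 0.14 (standard error 0.38) and −0.06 (standard error 0.40) on the log2 scale. *Hsp90ab1* exceeded *Hsp90aa1* in each liver, by 2.53‐fold to 3.26‐fold.

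*Hspd1* and *Hspe1* encode HSP60 and HSP10, the barrel and the lid of the mitochondrial chaperonin. They overlap at their 5′ ends on opposite strands (chr1:55077835-55088243, minus strand, and chr1:55088132-55091307, plus strand), and whether the counting used strand was not given in the sources used here. *Hspd1* was at 50.2 and 63.4 FPKM in WT and 62.6 and 65.9 FPKM in LKO, the narrowest range of the 10 genes. Its LKO livers differed only 1.05‐fold, below the shift of all genes between those libraries. *Hspe1* was at 6.28 and 8.06 FPKM in WT and 5.76 and 8.97 FPKM in LKO, 1.56‐fold apart in LKO. The genotype differences were 0.19 (standard error 0.32, 95% interval −0.51 to 0.88) for *Hspd1* and 0.01 (standard error 0.36, 95% interval −0.75 to 0.78) for *Hspe1*. Between the LKO livers, *Hsph1* (3 units in its promoter windows) differed 10.1‐fold, *Hspa1a* and *Hspa1b* (2 units) 9.14‐fold and 8.98‐fold, and *Dnajb1* (no match) 8.89‐fold. *Dnaja1* (2 units) differed 1.77‐fold, and *Hspe1* and *Hspd1* (4 units) 1.56‐fold and 1.05‐fold. Only exact matches within the windows were sought, and a relation between units and these differences was not tested.

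**Figure D3:**
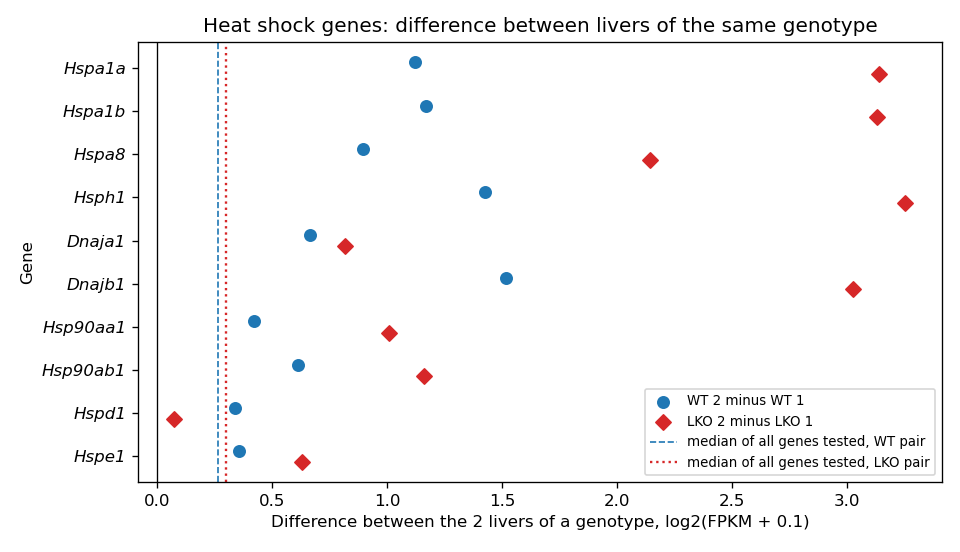
Difference between the 2 livers of a genotype for each heat shock gene, in log2(FPKM + 0.1), with WT pairs as circles and LKO pairs as diamonds and the median of all genes tested as dashed (WT) and dotted (LKO) lines. Hspa1a, Hspa1b, Hsph1 and Dnajb1 exceed 3 in LKO and 1 in WT, and Hspd1 lies below the LKO median.

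The differences within a genotype were set against all genes tested as a description, since 1 liver against 1 has no replicate check. LKO replicate 2 was more than 2‐fold above LKO replicate 1 for 7 of the 10 genes and for 9.61% of all genes, on the log2(FPKM + 0.1) scale. WT replicate 2 was more than 2‐fold above WT replicate 1 for 4 of the 10 (*Hspa1a*, *Hspa1b*, *Hsph1* and *Dnajb1*) and for 2.79% of all genes. Ranked by the LKO difference among the 12346 genes, *Hsph1* stood at 9, *Hspa1a* at 11, *Hspa1b* at 12, *Dnajb1* at 17 and *Hspa8* at 70. By the WT difference, *Dnajb1* stood at 66, *Hsph1* at 83, *Hspa1b* at 185 and *Hspa1a* at 214. After median‐ratio rescaling, which removes the shift between libraries, the LKO differences over 2‐fold numbered 5 (4.99% of all genes) and the WT differences 2 (1.10% of all genes). The median over the 10 genes was then 1.33 in LKO and 0.47 in WT, against 1.65 and 0.78 before rescaling. *Hspd1* turned to −0.25 in LKO after rescaling. The 10 genes together took 0.0708% and 0.103% of the summed FPKM in WT and 0.0620% and 0.157% in LKO.

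Averaged over the 4 livers, *Hsp90ab1* had the highest level per length (160.5 FPKM), followed by *Hspa8* (107.2 FPKM), *Hspd1* (60.5 FPKM) and *Hsp90aa1* (55.6 FPKM). Then came *Hspa1b* (13.1 FPKM), *Dnaja1* (9.58 FPKM), *Hspa1a* (8.72 FPKM), *Hspe1* (7.27 FPKM), *Hsph1* (7.04 FPKM) and *Dnajb1* (3.42 FPKM). The order among these 6 rested on LKO replicate 2, since in the other 3 livers *Dnaja1* was above *Hspa1b*, and *Hspe1* above *Hspa1a*. Neighbours in this order overlapped in range over the livers, except that the lowest value of *Hsp90aa1* (39.6 FPKM) was above the highest of *Hspa1b* (33.9 FPKM). Compared within each liver, *Hsp90ab1* was always above *Hspa8*. *Hspa8* and *Hspe1* are listed under transcripts annotated as retained introns, and the transcript named for *Hsph1* was not in the annotation used here, so the lengths behind these 3 levels are uncertain.

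**Figure D4:**
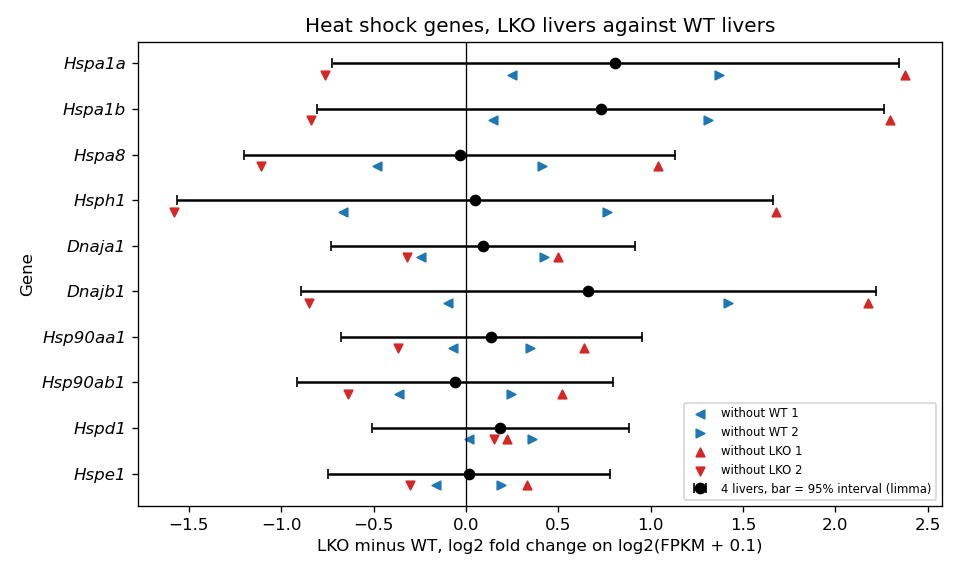
LKO minus WT log2 fold change of each heat shock gene, with black points and 95% intervals from limma over 4 livers and coloured triangles for fits that each left out 1 liver. Every interval spans 0, and for 9 of the 10 genes the triangles fall on both sides of 0.

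The direction of the comparison changed with the livers that were included, of either genotype. Without LKO replicate 1, all 10 genes were higher in the remaining LKO liver, and 5 passed the threshold (*Hspa1a*, *Hspa1b*, *Hspa8*, *Hsph1* and *Dnajb1*), where 3.26% of all genes were called higher. Their log2 fold changes ran from 1.04 for *Hspa8* to 2.38 for *Hspa1a*, and 4 of the 5 had an adjusted p under 0.05, *Hspa8* being the exception, as did 269 of the 12346 genes tested (limma with Benjamini‐Hochberg adjustment). Without LKO replicate 2, 9 of the 10 were lower, and *Hspa8* (−1.11) and *Hsph1* (−1.58) passed the threshold in that direction, where 2.58% of all genes were called lower. *Hsph1* thus had an adjusted p of 0.0116 with a higher level in one fit and of 0.0168 with a lower level in the other, where 140 of all genes tested were under 0.05. With either WT liver left out, 0 of the 10 passed, but 3 of the 10 were higher in LKO without WT replicate 1 (*Hspa1a*, *Hspa1b* and *Hspd1*) and all 10 without WT replicate 2. *Hsph1* then had −0.66 and 0.76, and *Hspa8* −0.48 and 0.41. In such fits a group of 1 liver is assumed to vary as much as the other group.

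*Hsf1*, which encodes HSF1, the main activator of the heat shock genes, is named here after its values were seen. It was at 0.992 and 1.67 FPKM in WT and 0.944 and 1.71 FPKM in LKO, so the replicates 2 were nearly level. LKO replicate 2 was highest and WT replicate 2 second for 2 of the 4 genes in its list, an order that 26.4% of all genes tested had. For *Hsf2* and *Hsf4*, WT replicate 2 was highest. Of the 4 genes of HSF factors and their regulators, 0 passed the threshold, and their median log2 fold change was −0.15. *Hsf2*, which encodes a second heat shock factor, had a difference of −0.39 and *Hsbp1*, which encodes an HSF1‐binding protein, of −0.11.

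Co‐chaperones hand clients from HSP70 to HSP90 or adjust their ATPase cycles. Of 22 co‐chaperone genes, 0 passed the threshold, 0 had an unadjusted p under 0.05, 8 were higher and 14 lower in the LKO livers, and the median was −0.04. The order with LKO replicate 2 highest and WT replicate 2 second, which 26.4% of all genes tested had, held for 7 of the 22. *Stip1*, which encodes HOP, the adaptor between HSP70 and HSP90, was one of these and is named after its values were seen, with 7.89 and 12.9 FPKM in WT and 5.10 and 15.3 FPKM in LKO. *Bag3*, an exchange factor that directs HSP70 clients to autophagy, had the highest log2 fold change of those with a mean of at least 1 FPKM (0.55, standard error 0.39), at 4.64 and 6.17 FPKM in WT and 5.51 and 11.2 FPKM in LKO. *Bag6*, which handles misplaced membrane proteins, followed with 0.21. *Fkbp4*, the immunophilin FKBP52 of steroid receptor complexes, had the lowest at that level (−0.40, standard error 0.46), with 14.3 and 31.6 FPKM in WT and 10.1 and 25.6 FPKM in LKO, and *Dnaja4* had −0.35. *Fkbp4* was above 2‐fold between livers of both genotypes.

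Among 8 further HSP70 and HSP110 genes, 6 were tested and 0 passed the threshold. *Hspa13* had an unadjusted p of 0.0308 and an adjusted p of 1.00 (limma with Benjamini‐Hochberg adjustment), with 6.91 and 5.07 FPKM in WT and 8.13 and 15.7 FPKM in LKO, a log2 fold change of 0.92. Its product sits in the endoplasmic reticulum, so it is not cytosolic as the name of the list says. *Hspa4*, an HSP110 relative of *Hsph1*, stayed between 12.0 and 15.3 FPKM (log2 fold change 0.04). *Hspa1l*, named after its values were seen, lies beside *Hspa1a* and was at 6.99% to 9.44% of the *Hspa1a* level in each liver. A share of 3.62% of its 150‐base words occurs in *Hspa1a*, and what part of its reads came from that gene was not tested.

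The chaperonin CCT folds actin and tubulin in the cytosol. None of its 8 subunit genes passed the threshold, and their log2 fold changes lay between −0.14 for *Cct4* and 0.09 for *Cct7*, with −0.11 for *Cct3*. All 8 were higher in replicate 2 of both genotypes, by medians of 0.36 in WT and 0.37 in LKO, close to the shift of all genes. Of 9 other genes of mitochondrial chaperones and proteases, 0 passed the threshold and the median was −0.19. *Hspa9*, the mitochondrial HSP70 mortalin, was at 56.3 and 70.1 FPKM in WT and 68.7 and 68.1 FPKM in LKO (log2 fold change 0.12). The protease gene *Lonp1* had 0.14, *Grpel2*, an exchange factor for mortalin, −0.47, and *Clpp*, a matrix protease, −0.23. The order of livers seen in the heat shock genes held for 0 of these 9.

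Chaperones of the endoplasmic reticulum are controlled by the unfolded protein response rather than by HSF1. Of 12 such genes, 4 were past the threshold, which 0.98% of all genes tested passed. All 12 were higher in the LKO livers, with a median of 0.95, beside −0.02 over all genes. The 4 were *Hspa5* (1.17), the HSP70 of that compartment, *Hsp90b1* (1.09), its HSP90, *Hyou1* (1.25), its HSP110, and *Creld2* (1.16), a folding factor, and none had an adjusted p under 0.05. With LKO replicate 2 left out, 0 passed and the median was 0.08. *Hspa5* was at 156.4 and 109.3 FPKM in WT and 195.7 and 441.0 FPKM in LKO. The summed level of the 12 genes was 809.3 and 586.4 FPKM in WT and 793.0 and 2250 FPKM in LKO, so LKO replicate 2 was highest for this sum as for the heat shock genes, but 11 of these 12 genes were lower in WT replicate 2 than in WT replicate 1, whereas all 10 heat shock genes were higher there, and the order of the heat shock genes held for 0 of the 12. This contrast between the sets was not tested.

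**Figure D5:**
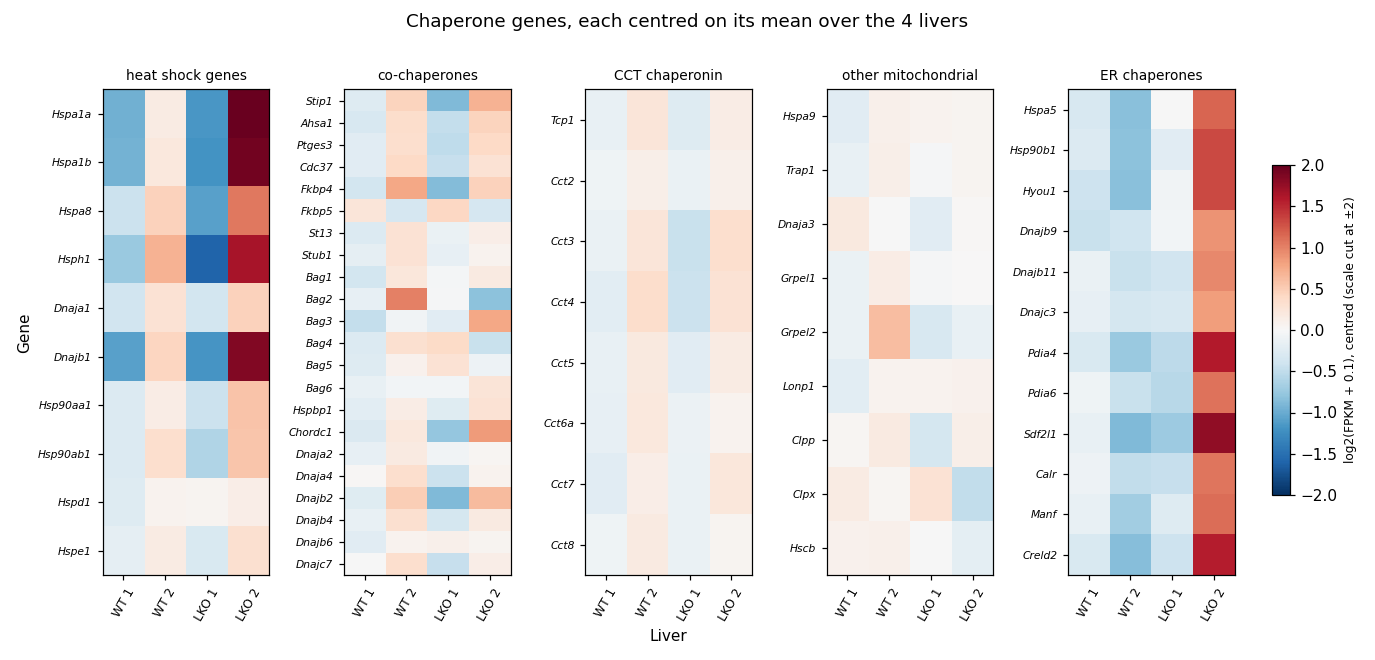
Chaperone genes in 5 groups with each gene centred on its mean over the 4 livers in log2(FPKM + 0.1), red above and blue below the mean, with the colour scale cut at 2. The heat shock genes are red in WT 2 and LKO 2 and blue in WT 1 and mostly in LKO 1, while the endoplasmic reticulum (ER) chaperones are red in LKO 2 and mostly blue in WT 2.

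The genes outside the 10 whose profile over the 4 livers was nearest to the mean profile of the heat shock genes, by Euclidean distance of centred log2(FPKM + 0.1) values among the 7717 genes that averaged 1 FPKM or more, were *Aif1* (0.25), *Grb7* (0.26), *Gatm* (0.26), *Deaf1* (0.27) and *Pradc1* (0.28). *Gatm*, which encodes the first enzyme of creatine synthesis, was at 0.760 and 1.57 FPKM in WT and 0.514 and 2.49 FPKM in LKO. *Grb7*, an adaptor of receptor tyrosine kinases, was at 2.64 and 5.16 FPKM in WT and 2.01 and 6.92 FPKM in LKO. *Aif1* encodes a macrophage protein, and *Deaf1* a transcription factor. The heat shock genes themselves lay at distances of 0.37 (*Hspa8*) to 1.30 (*Hspd1*) from that mean, because 4 of them varied much more and others less.

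Some marker sets also stood apart in LKO replicate 2 or LKO replicate 1, and macrophage markers also by genotype. The summed level of 10 macrophage markers was 44.9 and 45.0 FPKM in WT and 58.0 and 119.5 FPKM in LKO, and 10 of 10 were higher in the LKO livers. Past the threshold were 2 of them, beside 0.98% of all genes tested, and 0 had an adjusted p under 0.05 (limma). How far their rise rested on LKO replicate 2 was not tested. For 8 of the 10 both LKO values lay above both WT values, while 20.7% of all genes tested had both LKO values outside both WT values. None of the 10 had the order of the heat shock genes, and their medians within a genotype were −0.03 in WT and 1.06 in LKO. The summed level of 5 erythroid genes was 21.9 and 40.4 FPKM in WT and 180.9 and 26.8 FPKM in LKO, highest in the liver in which most heat shock genes were lowest. Sinusoidal endothelial markers summed to between 25.7 and 32.9 FPKM, stellate markers to 18.9 to 22.7 FPKM and cholangiocyte markers to 3.21 to 4.67 FPKM. Neutrophil markers summed to 11.3 and 4.19 FPKM in WT and 16.1 and 7.70 FPKM in LKO, lower in replicate 2 of both genotypes, where the heat shock genes were higher. The part of any of these in the differences between livers was not tested.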

How the data were processed

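The samples were 2 WT and 2 LKO whole livers, profiled by RNA‐seq and grouped by the sample labels. Per the methods of the study, the authors used Trimmomatic for trimming, HISAT2 for mapping (GRCm38), Cufflinks for the FPKM values and DESeq for their own test on counts. The submitters' processing notes name HISAT2 2.0.4 and StringTie 2.1.4, so which program made the deposited FPKM values is uncertain. The methods describe a stranded kit with paired reads of 150 bases, and the labels a BGIseq protocol. No scaling between libraries is stated. FPKM divides by transcript length and library total, so a few abundant genes can shift the others.

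The 27 symbols that had become dates were restored, and 1 listed gene was found by its transcript in GENCODE M21. Lengths were found for 98.3% of transcripts. Library totals were estimated as those at which values of transcripts of at least 2000 bases, up to 20 reads, were nearest to whole reads. Reads of single genes are therefore estimates. Genes averaging 0.1 FPKM or more were tested as log2(FPKM + 0.1) with limma 3.58.1 (lmFit, eBayes with trend) in R 4.3.3, with Benjamini‐Hochberg adjustment over all genes tested. Fold changes on this scale understate those of low genes. An exact permutation test (two‐sided) of 2 livers against 2 cannot go below 0.333. The p-values measure only the spread between livers, which eBayes moderates for each gene toward that of the other genes tested. For genes whose livers differed most, such as *Hspa1a* and *Hsph1*, standard errors and intervals are therefore narrower than their own livers alone would give. The limma procedure was checked on simulated data with a common spread for all genes, which does not test it for genes that vary as unequally as these. Other steps used Python 3.11.15, NumPy 2.4.6, pandas 2.3.3 and SciPy 1.17.1. Promoter sequences are from RefSeq (GRCm38.p6).

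The 10 members and all lists were chosen with earlier results of these data known. Besides the 10 genes and *Smarca4*, each chaperone list gave every gene past the threshold and the 2 largest rises and 2 largest falls with a mean of at least 1 FPKM, and the 5 nearest profiles were named. The fit was repeated with a replicate block, with eBayes lacking the trend, after quantile normalization or median‐ratio rescaling, with the filter dropped or set to 1 FPKM, with pseudocounts of 1 and 0.01, and with each liver left out.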

Additional observations from a re-analysis of the deposited data

How the results depend on the processing

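Over the 8 alternatives that kept all 4 livers, the 10 heat shock genes kept their direction and their side of the threshold in 79 of 80 cases. The exception was *Hspe1*, whose log2 fold change was −0.0084 under quantile normalization. Both filter settings, eBayes without the trend and the replicate block leave each fold change as it was, under 2‐fold for these genes. In those settings neither direction nor side could change, so only the pseudocount and scaling settings could alter them. The number of these genes whose LKO values lay outside the WT values was 1 (*Hspd1*) after median‐ratio rescaling and 1 under quantile normalization, in place of 0. The share over all genes tested was 20.7% in the main fit and was not counted in those settings. Same‐numbered livers shared only a number, their deviations had a correlation of 0.031 across 12346 genes, which are not independent replicates, and with the replicate block 0 heat shock genes passed the threshold. The endoplasmic reticulum list had 4 genes past the threshold, but 2 with no filter, 2 after median‐ratio rescaling, 1 under quantile normalization and 2 with the replicate block. The median of the other cytosolic HSP70 list was 0.48 with the filter set to 1 FPKM, where fewer genes were tested, and 1 immediate early gene passed with a pseudocount of 0.01. The cause of the other moves was not tested.

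With each liver left out in turn, log2 fold changes ranged from −0.76 to 2.38 for *Hspa1a*, −0.84 to 2.30 for *Hspa1b*, −1.11 to 1.04 for *Hspa8*, −1.58 to 1.68 for *Hsph1*, −0.32 to 0.50 for *Dnaja1*, −0.85 to 2.18 for *Dnajb1*, −0.37 to 0.64 for *Hsp90aa1*, −0.64 to 0.52 for *Hsp90ab1* and −0.30 to 0.33 for *Hspe1*. They ranged from −0.43 to 0.22 for *Hsbp1*, −0.13 to 0.21 for *Hspa4*, −1.07 to 0.26 for *Fkbp4*, −0.48 to 0.14 for *Hspb6*, −0.089 to 0.27 for *Cct7*, −0.51 to 0.23 for *Cct4*, −0.49 to 0.27 for *Cct3*, −0.037 to 0.28 for *Hspa9*, −0.47 to 0.0081 for *Clpp*, −0.25 to 0.90 for *Cirbp*, −0.20 to 1.24 for *Nr1d2*, −0.059 to 0.60 for *Tef*, −0.56 to 0.080 for *Hlf*, −0.53 to 0.16 for *Cry1*, −0.84 to 1.99 for *Fos*, −0.37 to 0.86 for *Jun*, −0.81 to 0.055 for *Ier2* and −0.79 to 0.38 for *Egr1*. For the nearest profiles they ranged from −0.77 to 1.33 (*Aif1*), −0.85 to 0.89 (*Grb7*), −0.96 to 1.11 (*Gatm*), −0.60 to 0.91 (*Deaf1*) and −0.56 to 1.32 (*Pradc1*). Heat shock genes past the threshold numbered 0 to 5, those with an adjusted p under 0.05 (limma) 0 to 4, and those with LKO values outside the WT values 0 to 10. Genes past the threshold numbered 0 to 2 for the other cytosolic HSP70 genes, 0 to 2 for the co‐chaperones, 0 to 1 for the small heat shock proteins, 0 to 12 for the endoplasmic reticulum list, 0 to 3 for the clock genes and 0 to 2 for the immediate early genes. Medians ranged from −0.15 to −0.0022 for the other mitochondrial genes, from 0.080 to 1.65 for the endoplasmic reticulum list and from −0.12 to 0.16 for the clock genes.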

Other observations

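Small heat shock proteins hold unfolded proteins without using ATP, and several are HSF1 targets in other settings. Of 8 such genes, 4 were tested and 0 passed the threshold. *Hspb1*, which encodes HSP27 (HSP25 in the mouse), was at 3.69 and 8.13 FPKM in WT and 3.25 and 3.73 FPKM in LKO, a log2 fold change of −0.64. *Hspb8* was the most abundant, with 57.8 and 68.1 FPKM in WT and 84.5 and 73.9 FPKM in LKO (0.33), and *Hspb6* had −0.17. None of the 4 had the order of livers of the 10 heat shock genes. In *Hspb1* the WT livers differed 2.20‐fold and the LKO livers 1.15‐fold, whereas for *Hspa1a* and *Hspa1b* the LKO livers differed more than the WT livers.

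Cold‐inducible RNA‐binding proteins, clock genes and immediate early genes were followed because body temperature, time of day and tissue handling can each change heat shock genes, and the part of these in the values was not tested. Of the 2 cold‐inducible genes, *Cirbp* was at 1.47 and 1.47 FPKM in WT and 2.84 and 1.22 FPKM in LKO and *Rbm3* at 17.5 and 13.9 FPKM in WT and 21.8 and 18.4 FPKM in LKO. Both were higher in LKO replicate 1, where most heat shock genes were lowest, than in any other liver. Of 15 clock genes, 0 passed the threshold and the median log2 fold change was 0.02, with 0.52 for *Nr1d2*, 0.27 for *Tef*, −0.24 for *Hlf* and −0.19 for *Cry1*. *Ciart*, a repressor of the clock chosen here after its values were seen, was at 1.59 and 1.63 FPKM in WT and 5.20 and 0.469 FPKM in LKO. Of 9 immediate early genes, 8 were tested and 0 passed, with a median of −0.05. *Fos* was at 1.23 and 1.07 FPKM in WT and 0.595 and 4.84 FPKM in LKO (log2 fold change 0.57), *Jun* at 6.01 and 10.5 FPKM in WT and 6.12 and 14.5 FPKM in LKO (0.24). *Fos*, *Egr1* (−0.21) and *Ier2* (−0.38) were lowest in LKO replicate 1, and *Jun* in WT replicate 1.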
